A study of Mus musculus with 4 samples.

Results

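Platelet and adhesion cytoskeleton genes are the genes of the machine with which a megakaryocyte or a platelet pulls on its matrix and builds proplatelets. The 10 genes described here were Myh9, Myl9, Flna, Actn1, Tln1, Fermt3, Vcl, Zyx, Lpp and Tubb1, found by symbol among the 37140 genes that the 4 count tables of the series share. All 10 were listed in every table. The set was defined by gene name, but it was chosen with earlier results of these data known.

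Integrins hold a cell to its matrix, and their tails are bound by talin and kindlin, which switch the receptor on. Vinculin, zyxin, LPP, filamin and alpha-actinin then tie talin and the integrin tail to actin, and non-muscle myosin II pulls on that actin. Proplatelets, the long shafts from which platelets are shed, are pushed out by microtubules that in megakaryocytes are rich in beta-1 tubulin. Inherited defects of MYH9, FLNA, ACTN1 and TUBB1 are known causes of large or scarce platelets in people, and loss of kindlin-3 disables integrins on platelets and leukocytes.

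RNA was sequenced from 2 sorted stem cell populations of the marrow of C57Bl6 mice, taken from tibiae, femora and humeri. The first were, by the study's methods, hematopoietic stem cells (HSCs) negative for lineage markers and Cd48 and positive for cKit, Sca1 and CD150. The study's results instead call this population CD41+/CD9+ HSCs. Whether it held all HSCs or only those high in CD41 and CD9 was therefore not settled. The second were HSCs gated as CD41low and CD9low, a gate meant to keep out precursors of megakaryocytes. Each population gave 1 library labelled Gfi1b WT and 1 labelled Gfi1b KO, 4 libraries in all. By the study's methods both genotypes carried Rosa-Cre and received tamoxifen 2 weeks before sorting, the KO pool came from 5 Gfi1b fl/fl mice and the WT pool from 10 Gfi1b wt/fl mice, so that the controls could lose 1 allele. GEO's design text describes the groups differently, as flox/flox mice with or without ROSA-Cre, and the titles write Gfi1 where the genotype field writes Gfi1b. Rosa-Cre acts in all tissues, so the deletion was not restricted to stem cells. Cells were pooled across mice, and with 1 library per group no within-population comparison has a replicate check.

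The HSC libraries held 50781007 (WT) and 41690708 (KO) counts on genes, and the CD41low/CD9low libraries 12732079 (WT) and 19123185 (KO). The 3 counts taken as the detection floor corresponded to between 0.0591 and 0.236 CPM. Reads outside any annotated feature amounted to 80.0 per 100 gene counts in WT HSCs and 105 in KO HSCs, against 62.0 and 60.1 in the other 2 libraries. The whole-gene count of Gfi1b was higher in both libraries labelled KO, with 49910 counts against 9256 in HSCs and 9741 against 611 in CD41low/CD9low HSCs. A whole-gene count does not separate the floxed exons 2 to 4 from the rest, so it does not check the deletion, and WT and KO below name the libraries so labelled. The stem cell markers Kit, Ly6a, Slamf1, Procr, Mecom, Hlf and Fgd5 had counts in every library.

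Levels below are counts divided by size factors of the 4 libraries (normalized counts). KO/WT ratios use size factors of the 2 libraries compared, so they can differ slightly from the quotient of the levels. Brackets hold exact 95% intervals for counting error only. A gene is called higher above a ratio of 1.5 and lower below 0.6, cutoffs taken from the study, and only genes with at least 10 counts in a library of the pair were examined.

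Tln1, Fermt3, Flna and Myh9 were among the most abundant genes of all 4 libraries, whereas Lpp, Actn1, Tubb1 and Myl9 were of middling or low level, and most members changed little with the Gfi1b genotype. Per kilobase of exon, Tln1 stood first in every library, with 3990 to 4584 normalized counts per kb. Fermt3, Flna and Myh9 followed between 2256 and 3549 per kb. Fermt3 was second in 3 libraries and Flna in WT CD41low/CD9low HSCs. Vcl and Zyx lay between 246 and 1178 per kb, Lpp, Actn1 and Tubb1 between 21.4 and 228 per kb, and Myl9 was last everywhere with at most 21.1 per kb.

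**Figure D1:**
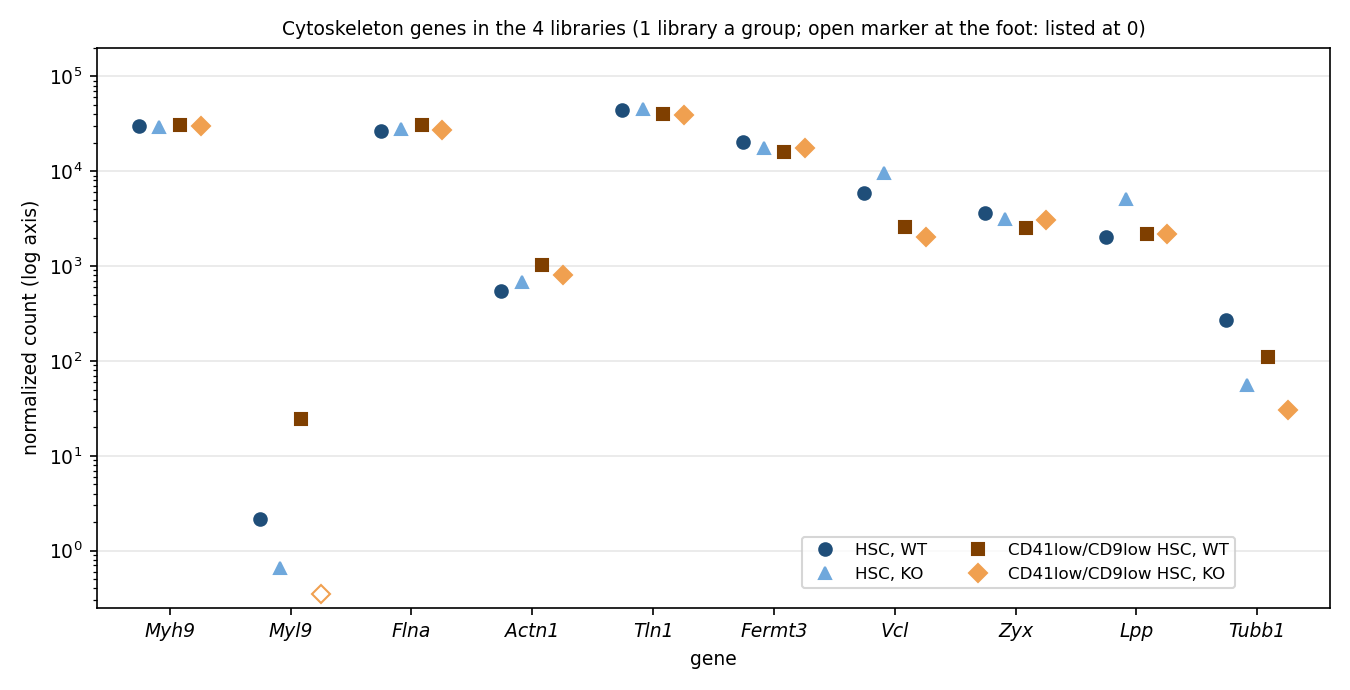
Normalized count (vertical log axis) of each of the 10 genes (horizontal axis) in the 4 libraries, 1 marker per library; the open marker at the foot is a library listed at 0. Myh9, Flna, Tln1 and Fermt3 lie at 15915 or above in every library, Lpp and Vcl stand highest in KO HSCs, and Tubb1 lies lower in each KO library than in its WT library.

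Myosin came first among the members with ratios near 1 before any length correction. Myh9, the heavy chain of non-muscle myosin IIA, had normalized counts of 29994 in WT HSCs, 29165 in KO HSCs, 30576 in WT CD41low/CD9low HSCs and 30241 in KO CD41low/CD9low HSCs. The 4 libraries were almost level. The KO/WT ratio came to 0.981 (0.969–0.993) in HSCs, with 0.985 (0.964–1.01) in CD41low/CD9low HSCs.

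Its partner in megakaryocytes, Myl9, a regulatory light chain of myosin II, was nearly absent. The libraries held 4 counts in WT HSCs, 1 in KO HSCs, 12 in WT CD41low/CD9low HSCs and 0 in KO CD41low/CD9low HSCs. In HSCs it was too low to be examined. In CD41low/CD9low HSCs its KO/WT ratio was 0 (0–0.240). With the KO library set to the floor of 3 counts, it was 6.0-fold lower in the KO. It entered the comparison only through the 12 counts of the WT library. The light chains of the same family that other tissues use were abundant: Myl12a had 5509 and 3700 counts in WT and KO HSCs, and Myl12b 8153 and 6612, with KO/WT ratios of 0.829 and 1.0. In CD41low/CD9low HSCs their ratios were 1.08 and 0.918. Smooth muscle is the other tissue rich in Myl9. Of its genes, Acta2 and Cnn1 were at 0 in all 4 libraries, while KO HSCs held 4 counts of Myh11 and 1 each of Des and Tagln, all at 0 in the other 3 libraries. The stromal genes Cxcl12 and Lepr had 60 and 12 counts in WT CD41low/CD9low HSCs and, like Myl9, 0 in the KO library. The part of stromal cells in the Myl9 call was not tested.

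Crosslinkers that tie actin to receptors came next. Flna (filamin A, which binds integrin tails and the platelet receptor for von Willebrand factor) had 26825, 27665, 30314 and 27285 normalized counts in WT HSCs, KO HSCs, WT CD41low/CD9low HSCs and KO CD41low/CD9low HSCs. In HSCs its KO/WT ratio was 1.04 (1.03–1.05), and in CD41low/CD9low HSCs 0.896 (0.877–0.915). Actn1 (alpha-actinin-1, which bundles actin) had 541, 685, 1037 and 807 in the same order. Both CD41low/CD9low libraries stood above both HSC libraries. The KO/WT ratio of Actn1 came to 1.28 (1.17–1.39) in HSCs, with 0.774 (0.687–0.874) in CD41low/CD9low HSCs, within the cutoffs in both. Actn4 (alpha-actinin-4), the paralog of Actn1, was called higher in KO HSCs at 1.52 (1.47–1.58) and was within the cutoffs in CD41low/CD9low HSCs at 1.25.

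Both integrin activators stayed near a ratio of 1. Tln1, talin-1, had 44360, 44928, 39881 and 39106 normalized counts, again in the order WT HSCs, KO HSCs, WT and KO CD41low/CD9low HSCs, and ratios of 1.02 (1.01–1.03) and 0.976 (0.959–0.994). Fermt3, the kindlin of blood cells, had 20526, 17627, 15915 and 17589, and ratios of 0.866 (0.853–0.880) and 1.10 (1.07–1.13). WT HSCs held the most Fermt3 and WT CD41low/CD9low HSCs the least. Their rarer paralogs moved further. Tln2, talin-2, had 53 counts in WT and 144 in KO HSCs, a ratio of 3.35 (2.43–4.69), but 50 and 27 in the gated cells, a ratio of 0.360 (0.217–0.586). Fermt2, the kindlin of adherent tissues, had 14 counts in WT and 58 in KO HSCs, a ratio of 5.11 (2.82–9.93). In CD41low/CD9low HSCs it had 0 and 14, or 3.11-fold more in the KO with the WT library set to the floor of 3 counts. Fermt2 in CD41low/CD9low HSCs was examined only through its KO library. These paralogs stayed far below Tln1 and Fermt3 in every library.

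Among the adaptors, which gather at the talin and actin end of the adhesion, Lpp and Vcl were called higher in KO HSCs, as were 14.1% of all 15910 genes examined there and 6.12% of abundant ones, those with a mean normalized count of at least 1000. Lpp, a LIM protein of the zyxin family, had 2009 normalized counts in WT HSCs and 5033 in KO HSCs, while WT CD41low/CD9low HSCs had 2152 and their KO counterparts 2156. KO HSCs stood alone above 3 level libraries. The KO/WT ratio reached 2.53 (2.43–2.63) in HSCs, with 0.997 (0.922–1.08) in CD41low/CD9low HSCs. Vcl, vinculin, had 5834 in WT HSCs, 9651 in KO HSCs, 2555 in WT and 2011 in KO CD41low/CD9low HSCs, with ratios of 1.67 (1.63–1.71) and 0.784 (0.726–0.846). Zyx, zyxin, had 3651, 3159, 2543 and 3052, with ratios of 0.873 (0.841–0.906) and 1.19 (1.11–1.28), within the cutoffs in both populations.

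Lpp and Vcl are long genes, with exons of 22046 and 8191 bases in all and genomic spans of 599 and 104 kb, and KO HSCs differed from WT HSCs by transcript length. Genes with exon lengths like that of Lpp had a running median ratio of 1.27 in HSCs. Relative to genes of similar exon length the HSC ratio was 1.99 for Lpp and 1.53 for Vcl, and relative to genes of similar genomic span, a correction chosen after seeing the data, 2.10 for Lpp and 1.46 for Vcl. The call for Vcl was thus lost under the second correction and that for Lpp was kept under both. The correction for exon length also turned Flna and Tln1, which had ratios of 0.929 and 0.904 in HSCs after it. Myh9 went from 0.981 to 0.843 in HSCs under it, still within the cutoffs.

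Stromal and endothelial markers also summed highest in KO HSCs, but not every gene followed the sums. The summed normalized count of 9 stromal and smooth muscle genes was 2497, 3684, 933 and 775 in WT HSCs, KO HSCs, WT and KO CD41low/CD9low HSCs. Col1a1, a chain of type I collagen, made up much of this sum at 870, 1633, 24.5 and 9.59. Of the 5 examined, 2 were called higher in KO HSCs (Col1a1 and Lepr), against 14.1% of all genes. Lepr had 10 counts there against 0 in WT HSCs, and so was examined only through its KO library. Of the 5, 4 had HSC ratios above 1 and 1, Pdgfrb at 0.860, below. In CD41low/CD9low HSCs 0 of 5 were called higher in the KO and 3 lower, against 13.5% and 12% of all genes. Cxcl12 and Lepr stood highest in WT CD41low/CD9low HSCs, with 60 and 12 counts there and 0 in KO CD41low/CD9low HSCs. The sum of 5 endothelial genes was 4076, 5010, 2299 and 2592, again with 2 of 5 called higher in KO HSCs, against 14.1% of all genes. Tek made up most of this sum at 3069, 3599, 1714 and 1844. Of these 5, 4 had HSC ratios above 1 and 1, Cdh5, below, with 16 counts in WT and 11 in KO HSCs. The part of these markers in the ratios of Lpp and Vcl was not tested.

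The windows before the starts of the called members are shown because a promoter element of adhesion and contractile genes can be looked for in them. They were taken from RefSeq on GRCm38.p6, the build equivalent to mm10, and matched by symbol for all 10 genes, with 11 starts because Lpp has 2. Capitals mark a CArG box, the site of serum response factor (SRF), or the letters GATAA on either strand, the core of GATA factor sites.
Vcl (chr14:20929148-20929397, plus strand): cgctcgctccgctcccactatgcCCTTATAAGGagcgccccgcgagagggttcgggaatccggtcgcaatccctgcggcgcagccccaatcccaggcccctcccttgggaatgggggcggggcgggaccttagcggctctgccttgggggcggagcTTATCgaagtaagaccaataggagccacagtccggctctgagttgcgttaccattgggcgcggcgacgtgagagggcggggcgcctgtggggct
Lpp, first start (chr16:24393100-24393349, plus strand): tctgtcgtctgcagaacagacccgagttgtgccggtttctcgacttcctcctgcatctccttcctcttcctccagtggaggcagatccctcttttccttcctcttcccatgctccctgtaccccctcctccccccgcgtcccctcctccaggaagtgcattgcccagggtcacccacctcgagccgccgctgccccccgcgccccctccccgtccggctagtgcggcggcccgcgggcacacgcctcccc
Tubb1 (chr2:174450345-174450594, plus strand): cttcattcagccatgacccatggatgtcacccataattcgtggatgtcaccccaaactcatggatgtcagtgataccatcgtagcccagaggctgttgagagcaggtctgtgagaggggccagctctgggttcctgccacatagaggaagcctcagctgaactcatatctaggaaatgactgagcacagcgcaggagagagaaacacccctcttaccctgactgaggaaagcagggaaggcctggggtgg
Myl9, stretch around its CArG box (chr2:156775283-156775332, plus strand): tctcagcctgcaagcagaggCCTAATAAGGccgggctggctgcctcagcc

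CArG boxes were found in the 250 bases before the start of 2 of the 10 genes, Vcl and Myl9, against 1.47% of all 32851 RefSeq windows of that length. GATAA on either strand was found in 1 of the 10, Vcl, against 22.6% of all windows. TGAGTCA, the letters of an AP-1 site, was found in 1, Zyx, against 4.46%. AATC, the core of Gfi1 and Gfi1b sites, was found in 6 of the 10, against 69.0%. The windows of Tubb1 and of the first start of Lpp held neither CArG box, GATAA nor TGAGTCA. A match is only a match of letters. Srf itself had a KO/WT ratio of 0.769 (0.728–0.813) in HSCs and 1.14 (1.05–1.25) in CD41low/CD9low HSCs, within the cutoffs in both, and its coactivators Mrtfa and Mrtfb had 1.03 and 1.46 in HSCs and 0.873 and 0.976 in CD41low/CD9low HSCs.

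Tubb1, the beta-tubulin of megakaryocytes and platelets, was the one member called lower in both populations. It had 271 normalized counts in WT HSCs, 55.8 in KO HSCs, 110 in WT CD41low/CD9low HSCs and 30.1 in KO CD41low/CD9low HSCs. Each KO library lay below both WT libraries. The underlying counts were 505, 85, 54 and 22 in the same order, and the KO/WT ratio came to 0.208 (0.163–0.262) in HSCs, with 0.272 (0.158–0.454) in CD41low/CD9low HSCs. Of all genes examined in both populations, 2.45% were below 0.6 in both and 3.32% above 1.5 in both.

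**Figure D2:**
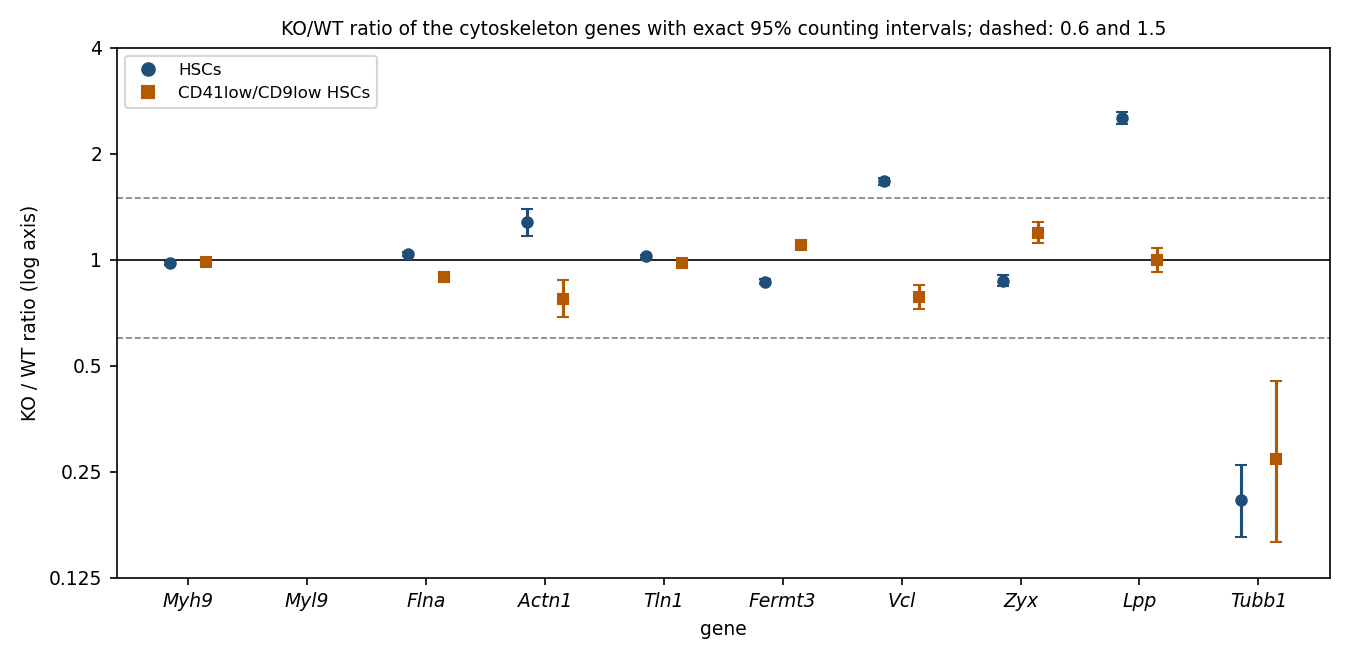
KO/WT ratio (vertical log axis) of each gene in HSCs (circles) and CD41low/CD9low HSCs (squares) with exact 95% counting intervals; the solid line is a ratio of 1, dashed lines are the cutoffs 0.6 and 1.5, and Myl9 is not drawn. Tubb1 lies below 0.6 in both populations, Lpp (2.53) and Vcl (1.67) lie above 1.5 in HSCs only among the ratios drawn, and every other point lies between the dashed lines.

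Counted over the members, 2 of the 9 examined in HSCs (Vcl, Lpp) were called higher and 1 (Tubb1) lower, with a median log2 ratio of 0.03. Over all 15910 genes examined there, 14.1% were called higher and 10.3% lower, with a median log2 ratio of 0.00. Among abundant genes the shares were 6.12% higher and 1.56% lower, and Vcl and Lpp are of this kind while Tubb1 is not. In CD41low/CD9low HSCs none of the 10 was called higher and 2 (Tubb1, Myl9) lower, against 13.5% and 12% of all 14844 genes, or 1.28% and 0.296% of abundant ones. The members' median log2 ratio there was -0.10, and -0.03 without Myl9, against 0.01 over all genes. Counts of 0 to 2 members were near the share over all genes examined, and the share of abundant genes was smaller.

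The genotype effect shared by both populations was tested in 1 fit over the 4 libraries with population as the other term, in which the populations stand in as replicates and 1 residual degree of freedom remains. The methods describe marrow pooled by genotype before sorting, so both libraries of a genotype can stem from the same mice, and p-values from this fit measure the spread between these 4 libraries and not between mice. In edgeR's quasi-likelihood test with Benjamini-Hochberg adjustment, 0.332% of the 14745 genes tested were higher in the KO and 0.109% lower, at an adjusted p under 0.05. None of the 9 members tested passed, 2 of them had an unadjusted p under 0.05, and DESeq2 called 0 as well. Tubb1 had a log2 fold change of -2.19 (SE 0.48) with an edgeR adjusted p of 0.121, lower in both of the KO libraries. Lpp had 0.73 (SE 0.26) with an edgeR adjusted p of 0.349. Log2 fold changes of the other 7 ran from -0.05 for Flna to 0.25 for Vcl. When genes needed 50 counts in at least 2 libraries, the edgeR adjusted p of Tubb1 was 0.0218 and it was called lower.

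Between the populations, Vcl and Tubb1 were lower in CD41low/CD9low HSCs than in HSCs within each genotype, and Actn1 and Lpp differed in 1 genotype. Vcl in CD41low/CD9low HSCs was 0.431 (0.406–0.457) times its HSC level among WT libraries and 0.205 (0.194–0.216) times among KO libraries. For Tubb1 these ratios were 0.401 (0.297–0.532) and 0.531 (0.316–0.857). Actn1 was called higher among WT libraries at 1.89 (1.69–2.10), with 1.16 (1.04–1.28) among KO libraries. Lpp was called lower among KO libraries at 0.421 (0.399–0.445), with 1.05 (0.984–1.13) among WT libraries. After correction for exon length the KO value of Lpp was 0.611, above the cutoff of 0.6, and its call was lost. Myl9, with 12 against 4 counts, had a WT ratio of 11.3 (3.41–47.9), passed the minimum of 10 counts only through the CD41low/CD9low library where it was high, and was too low among KO libraries.

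**Figure D3:**
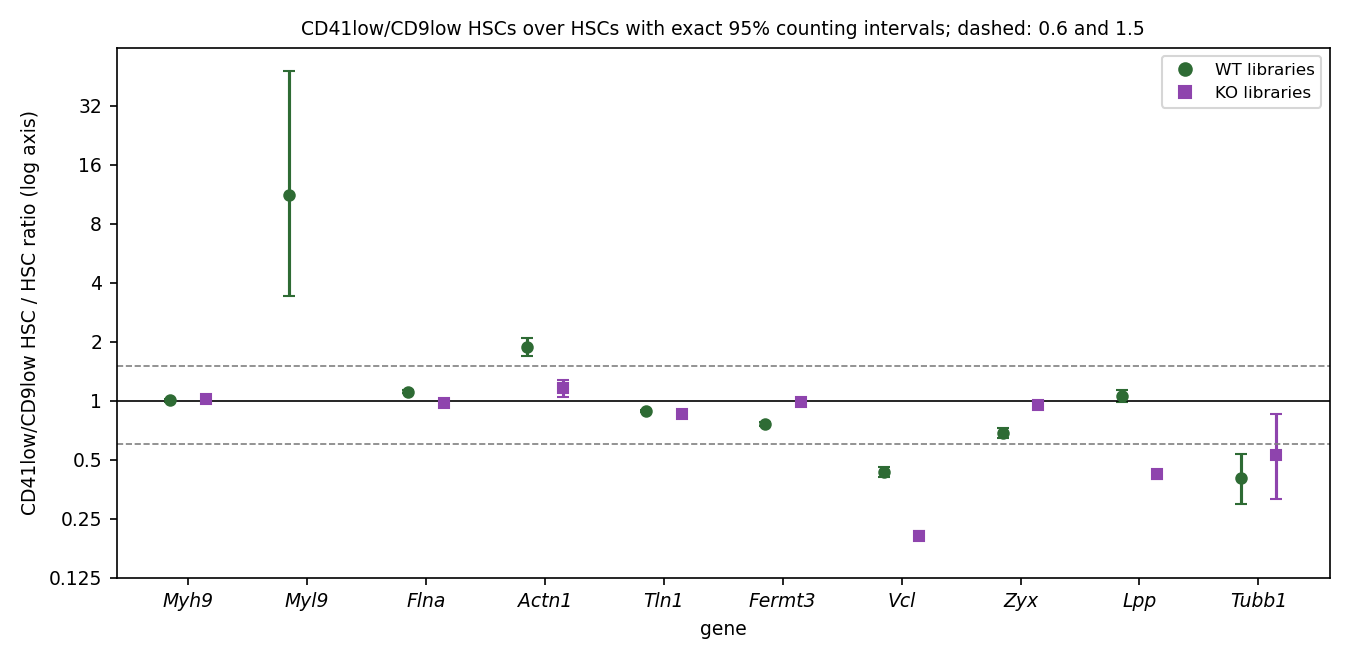
Level in CD41low/CD9low HSCs over that in HSCs (vertical log axis) for each gene among WT (circles) and KO (squares) libraries with exact 95% counting intervals; dashed lines are 0.6 and 1.5. Vcl lies below 0.6 in both genotypes (0.431 and 0.205), as does Tubb1 (0.401 and 0.531), while Myh9, Flna, Tln1, Fermt3 and Zyx lie between the dashed lines.

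Over all genes examined, 18.6% were called higher and 20.2% lower in CD41low/CD9low HSCs among WT libraries, and 18.4% and 21.1% among KO libraries. The members gave 2 of 10 higher and 2 lower among WT libraries (1 of 9 and 2 without Myl9), and 0 of 9 higher and 3 lower among KO libraries. In the population term of the 4-library fit, 7.62% of genes were higher and 11.1% lower in CD41low/CD9low HSCs by edgeR's quasi-likelihood test. Vcl was the 1 member of 9 to pass, with a log2 fold change of -1.73 (SE 0.22) and an edgeR adjusted p of 0.00147, lower in both CD41low/CD9low libraries. Platelet genes moved with it. Of the 17 megakaryocyte and platelet markers tested, 16 were called lower. The summed normalized count of the 18 listed was 65908 (WT) and 89945 (KO) in HSCs against 23909 (WT) and 27050 (KO) in the gated population. The 16 and the sums include Itga2b, which encodes CD41, and Cd9, the antigens of the gate. The sort itself selected for low surface levels of these proteins, so their genes are no separate evidence. In HSCs Itga2b had 14892 (WT) and 18897 (KO), against 3553 and 5368 in the gated population. In bulk RNA fewer cells of a type and less RNA per cell cannot be told apart, and the gate on CD41 and CD9 itself sets the populations apart. The part of the platelet markers in the Vcl and Tubb1 differences was not tested.

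By genotype the same markers were mixed, with more called higher than lower in both populations. Of 18 examined in HSCs, 7 were called higher in the KO, 2 lower (Selp and P2ry12) and 9 within the cutoffs. Of 16 in CD41low/CD9low HSCs 7 were higher, 1 lower (Selp) and 8 within. Over all genes 14.1% were higher and 10.3% lower in HSCs, and 13.5% were higher in CD41low/CD9low HSCs. In the 4-library fit 17 of the markers were tested for genotype. Itgb3, Clec1b and Nrgn were called higher and Selp lower, at an edgeR adjusted p under 0.05. Itgb3 (integrin beta-3) was called higher in both at 3.32 (3.25–3.40) and 2.74 (2.51–2.99), and its rise from 5516 to 18154 normalized counts in HSCs was part of the higher KO sum. Treml1, Nrgn and Gp1bb were also called higher in both, Gp1bb in CD41low/CD9low HSCs with 61 counts against 0 and so only through its KO library. Pf4 (platelet factor 4) was within the cutoffs at 0.889 and 0.922, as were Vwf (von Willebrand factor) at 1.23 and 0.610 and Mmrn1 (multimerin-1) at 0.995 and 0.858. Like Tubb1, Selp (P-selectin, a protein of platelet granules) was called lower in both, at 0.378 and 0.409. Blood cells of other kinds differed as well: the summed normalized count of 6 erythroid genes was 1036, 1140, 3158 and 367 in WT HSCs, KO HSCs, WT and KO CD41low/CD9low HSCs, and that of 7 neutrophil and monocyte genes 9418, 11356, 13043 and 4010. WT CD41low/CD9low HSCs stood highest in both sums, and their part in the KO/WT ratios of that population was not tested.

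Tubulins as a family were examined next, because Tubb1 makes its microtubules with alpha-tubulin partners. The list of tubulin genes, chaperones and microtubule proteins had 22 genes besides Tubb1 examined in HSCs. Of these, 7 were called lower and 1 higher (Kif2a, 1.57), against 10.3% and 14.1% of all genes, with a median log2 ratio of -0.36. Tubb2b was among the 7 with 15 counts in WT HSCs against 0 in KO HSCs, and so only through its WT library. After correction for exon length or for gene span 5 of 21 were called lower and 0 higher, with a median of -0.29 under each. In CD41low/CD9low HSCs 2 of 22 were lower and 0 higher, both below the shares over all genes given above, with a median of -0.05. Tuba8, an alpha-tubulin of platelets and muscle, had 1430, 310, 239 and 107 normalized counts in WT HSCs, KO HSCs, WT and KO CD41low/CD9low HSCs. Its KO/WT ratio came to 0.219 (0.198–0.242) in HSCs, with 0.444 (0.329–0.597) in CD41low/CD9low HSCs. In the 4-library fit Tuba8 was the 1 gene of this list called, with a log2 fold change of -1.98 (SE 0.30) and an edgeR adjusted p of 0.0238. Tubb2a was called lower in both populations at 0.412 (0.336–0.504) and 0.50 (0.355–0.701), with an edgeR adjusted p of 0.326. Tubb5 and Tuba1b, which all dividing cells use, were within the cutoffs in both, Tubb5 at 0.877 and 0.869 and Tuba1b at 0.792 and 0.934. Tuba1c and Tuba1a were called lower in HSCs, at 0.491 and 0.587, with 0.784 and 1.25 in CD41low/CD9low HSCs. Reads shared between near-identical tubulin genes make the split among them uncertain.

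**Figure D4:**
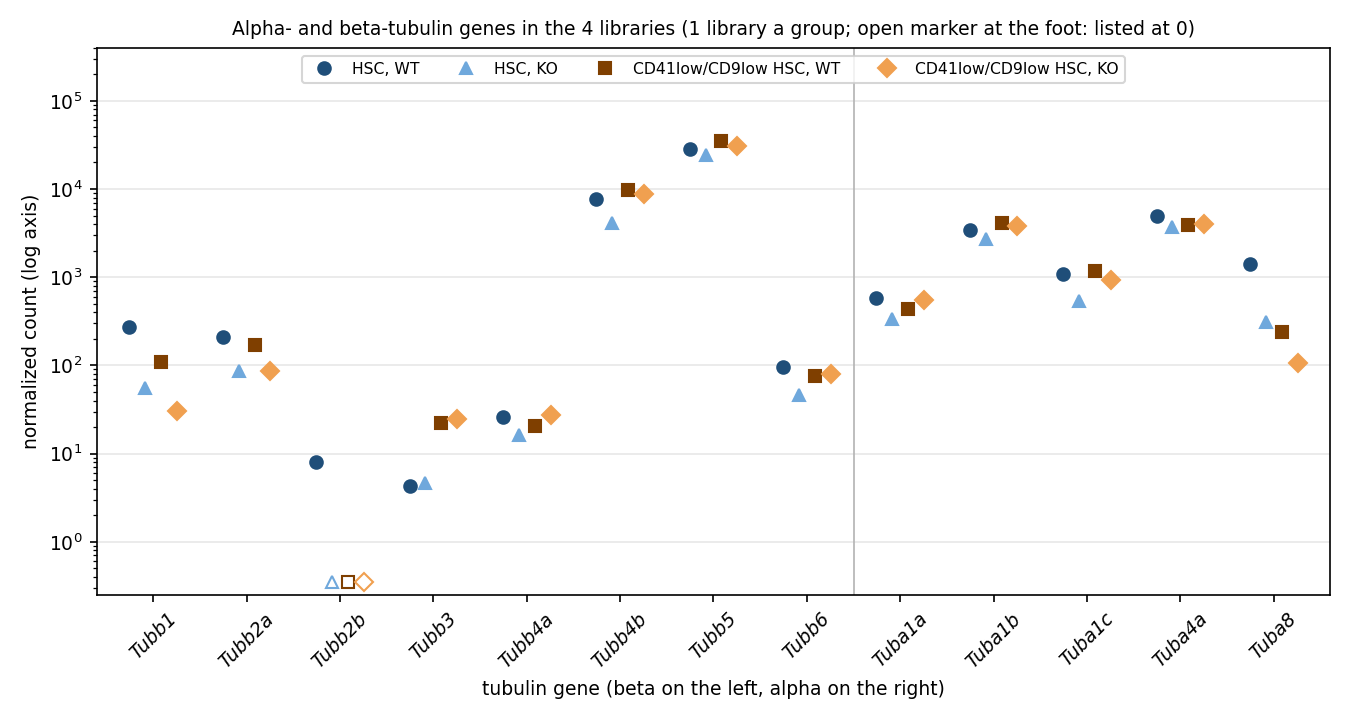
Normalized count (vertical log axis) of 8 beta-tubulin and 5 alpha-tubulin genes in the 4 libraries, 1 marker per library; open markers at the foot are libraries listed at 0. Tubb1, Tubb2a and Tuba8 lie lower in each KO library than in its WT library by more than the cutoff, while Tubb5, the most abundant, varies little.

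Focal adhesion genes besides the members leaned the other way in HSCs. Of 30 examined, 11 were called higher in KO HSCs, against 14.1% of all genes, and 1 lower (Pdlim7, a LIM protein, 0.569), with a median log2 ratio of 0.29. After correction for exon length 7 of 30 were called higher with a median of 0.28, against 13.5% of all genes, and after correction for gene span 5 of 30 with a median of 0.14, against 13.3%. The stromal and endothelial sums given above were also highest in KO HSCs, and their part here was not tested. In CD41low/CD9low HSCs 2 of 29 were higher and 5 lower, against 13.5% and 12% of all genes, with a median of 0.07. Among the 5 was Evl, an actin elongation factor, at 0.422. In the 4-library fit 0 genes of this list passed edgeR's test for genotype. Among 20 other actomyosin genes 3 were called higher in HSCs and 1 lower, against 14.1% and 10.3% of all genes. The 3 of 20 were near the share over all genes. Among 19 in CD41low/CD9low HSCs 1 was higher and 1 lower, against 13.5% and 12%. Here 2 tropomyosins kept opposite directions in both populations: Tpm4, the tropomyosin of megakaryocytes, was higher at 1.76 (1.66–1.87) and 1.59 (1.37–1.84), and Tpm2 lower at 0.574 (0.462–0.711) and 0.306 (0.231–0.402). Their edgeR adjusted p-values were 0.158 and 0.337. Of 31 genes of actin turnover 1 was called higher in HSCs (Gsn, gelsolin, 1.91) and 2 lower (Coro1a, 0.480, and Fscn1, 0.30). In CD41low/CD9low HSCs Fscn1 alone was called, lower at 0.502. In both populations these counts were below the shares over all genes just given. Fscn1 encodes fascin, which bundles actin in protrusions.

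**Figure D5:**
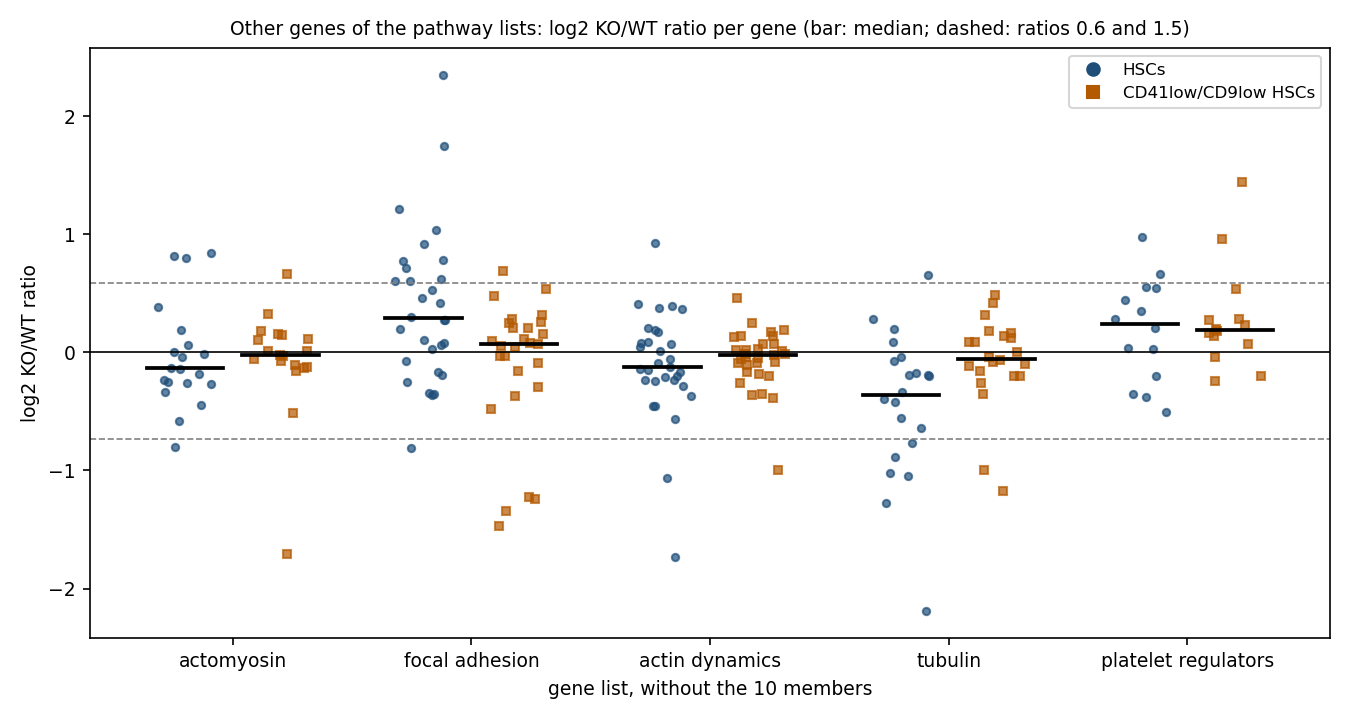
The log2 KO/WT ratio of every examined gene (1 point each) of 5 lists without the 10 members, in HSCs (circles) and CD41low/CD9low HSCs (squares); bars are list medians, dashed lines the cutoffs 0.6 and 1.5 as log2, and genes with a library at 0 are not drawn. In HSCs the median is 0.29 for focal adhesion genes and -0.36 for tubulin genes, and in CD41low/CD9low HSCs they are 0.07 and -0.05.

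Regulators of platelet genes were the last list. Of 14 transcription factors and receptors, 2 were called higher in each population and 0 lower. The 2 of 14 were near the share of all genes called higher, 14.1% in HSCs and 13.5% in CD41low/CD9low HSCs. Gata2 was higher in both, at 1.98 (1.93–2.02) and 1.95 (1.86–2.04), with an edgeR adjusted p of 0.0138 in the 4-library fit. Runx1 was called higher in HSCs at 1.58, and Gata1 in CD41low/CD9low HSCs at 2.72 with 0.783 in HSCs. Nfe2, the factor that drives Tubb1 in megakaryocytes, had ratios of 0.871 and 1.12, and Fli1, which acts on many platelet genes, 1.46 and 1.13. Under at least 1 of the corrections, for exon length or gene span, the HSC calls of Actn4, Kif2a, Tuba1a, Tpm2 and Runx1 were lost. Of the 14 platelet regulators, 2 were called higher in HSCs after correction for exon length and 1 after that for gene span.

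Among the genes with a pattern over the 4 libraries most like that of Tubb1, by Euclidean distance between centred log2 levels among 11340 genes, were Plk2 (a polo-like kinase, distance 0.52) and Selp (0.81). Plk2 had 1144, 144, 378 and 93.1 normalized counts in WT HSCs, KO HSCs, WT and KO CD41low/CD9low HSCs. The pattern of the median member was matched closely by Actr1a and Mapkap1, each at a distance of 0.04. With 4 libraries such likeness is a description.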

How the data were processed

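RNA of 4 pooled, sorted cell samples was sequenced as paired-end stranded mRNA libraries. The submitters' processing notes name TopHat2 2.0.10, SAMtools, HTSeq, DESeq and the build mm10, and Ensembl genes were the features on which the authors counted. The deposited values are raw counts per gene. The annotation release, HTSeq version and strand setting were not given in the sources used here, and the tables of the 2 populations list 38293 and 41214 genes.

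HTSeq's closing lines were left out of the totals. Symbols, exon lengths and coordinates came from GENCODE M21, with a symbol for 36429 of the 37140 shared genes. Ratios used median-of-ratios size factors and Clopper-Pearson intervals (scipy 1.17.1). The difference between populations was given as a ratio of ratios without a test. The shared effects were fitted with edgeR 4.0.16 (TMM, filterByExpr), with DESeq2 1.42.0 as an alternative. Other filters, scalings and cutoffs were tried, as was correction for exon length and gene span. Scripts were tested on simulated data.

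Genes were named by rule: all 10 members, their paralogs, the 3 genes most like Tubb1 and most like the median member, and from each list those called alike in both populations or in the 4-library fit and up to 2 of the largest and smallest ratios in each population among genes with a mean of at least 100 normalized counts. Some genes that this rule takes are not reported here. Other genes were named after their values were seen. Members and lists were chosen with earlier results of these data known.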

Additional observations from a re-analysis of the deposited data

Results flagged for a closer look

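Members whose KO/WT ratio lay above 1 in one population and below 1 in the other, with counting intervals on opposite sides of 1, were Flna, Tln1, Zyx, Vcl, Actn1 and Fermt3. The differences between populations were not tested, since each rests on 4 single libraries and the model with an interaction leaves no residual degree of freedom. They are given as the ratio in CD41low/CD9low HSCs divided by that in HSCs, with a 95% counting interval.

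Vcl had the lowest of these at 0.470 (0.434–0.508), with ratios of 0.784 in CD41low/CD9low HSCs and 1.67 in HSCs. Actn1 followed at 0.606 (0.524–0.702). Flna had 0.861 (0.840–0.883) and Tln1 0.955 (0.936–0.976), both small beside the spread over all genes. After correction for exon length their HSC ratios were 0.929 and 0.904, below 1 as in CD41low/CD9low HSCs, so the opposite direction was lost. In the opposite sense Zyx had 1.37 (1.27–1.48) and Fermt3 1.27 (1.23–1.31). Lpp, level in CD41low/CD9low HSCs, had 0.395 (0.362–0.431). For Tubb1 the quotient was 1.31 (0.757–2.26), an interval that holds 1.

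Tln2, the rare paralog of Tln1, was called higher in KO HSCs and lower in KO CD41low/CD9low HSCs, with a quotient of 0.107 (0.0611–0.189) from 27 to 144 counts a library.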

How the results depend on the processing

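Tubb1 kept its calls in both populations wherever it was examined, with a KO/WT ratio between 0.205 and 0.238 in HSCs (0.268 to 0.282 in the CD41low/CD9low gate). Lpp in HSCs ran from 1.99 to 2.53 and Vcl from 1.46 to 1.67.

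Counts of genes and members moved mainly with the filter. In HSCs, 2248 genes were higher and 1639 lower; without a filter 4354 and 2649 (with 2 members lower, as Myl9 then enters), with at least 50 counts 1431 and 792, and with a mean of at least 1000 normalized counts 494 and 126 (0 members lower, as Tubb1 drops out). Cutoffs of 2 and 0.5 gave 1187 higher and 1 member higher. Correction for gene span, chosen after seeing the data, gave 1 member higher.

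In CD41low/CD9low HSCs, 1998 were higher and 1788 lower; without a filter 3121 were higher, with at least 50 counts 982 and 702 (1 member lower), with a mean of at least 1000 only 52 and 12 (0 members lower), and with cutoffs of 2 and 0.5 1264 were higher. Length and span corrections each left 1 member lower, because Myl9 at 0 counts gives no log ratio.

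Between the populations, a mean of at least 1000 gave 371 higher and 557 lower among WT libraries (0 members higher, 1 lower) and 606 and 831 among KO libraries, against 2908 and 3160, and 2841 and 3250. Exon length and span correction gave 1830 and 1792 lower among WT libraries, and 2146 and 2087 among KO libraries.

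For the shared genotype effect, 49 genes were higher and 16 lower. DESeq2 gave 30 lower, total-count scaling 87 and 37, and at least 50 counts in 2 libraries 153 and 91, with 1 member (Tubb1) lower. That filter gave 1 member higher (Actn1) and 2 lower (Vcl, Lpp) between populations. The causes of these shifts were not tested beyond the fewer or more genes examined.

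No paired analysis was possible because the labels carry no replicate numbers, apart from the 4-library fit itself, which takes the population as a block. Leaving out a library was not possible either: each group has 1, and 3 libraries leave the fit no residual degree of freedom. Depth limits Tubb1 (22 counts in KO CD41low/CD9low HSCs) and Myl9 most.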
